A study of Arabidopsis thaliana with 9 samples.

Results

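Transcripts of 10 genes of salicylic acid defence were compared in Arabidopsis thaliana seedlings of 3 genotypes. The genes were chosen by name as known parts of the pathway and are CBP60G, ICS1, EDS5, EDS1, PAD4, NPR1, FMO1, PR1, PR2 and PR5. All 10 were found among the 26973 genes of the deposited table. Wild type was compared with a genotype labelled OXmiR400 and another labelled OXrPPR1, each with 3 libraries, and sample titles mark all of them with the word Colombia. Cadmium, a toxic heavy metal, had been given at 100 µM for 6 h to all seedlings, so genotypes are compared under the metal, whose own effect is not measured. The sources used here do not give the promoters that drive the constructs, the age of the seedlings or the number of independent lines behind each genotype. Separate cultures behind the 3 libraries of a genotype are not stated, and p-values therefore reflect spread between samples that may be technical.

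Salicylic acid is a plant hormone of immunity against pathogens that feed on living tissue. Most of it derives from isochorismate, which is made in the plastid and exported. The hormone is sensed by the NPR proteins, which with transcription factors of the TGA family switch on pathogenesis-related (PR) genes. The lipase-like proteins EDS1 and PAD4 act upstream of synthesis and are themselves raised by the hormone, while FMO1 makes N-hydroxypipecolic acid, the mobile signal of systemic acquired resistance. In healthy leaves the genes for sensing are transcribed steadily, whereas transcripts of PR genes are scarce until the pathway is active.

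Expression is given as FPKM, a read or fragment density that corrects for exon length and library size. Library depth, recovered from the smallest steps in the values, lay between 12.65 and 17.128 M units for wild type, between 15.544 and 17.043 M for OXmiR400 and between 19.244 and 21.123 M for OXrPPR1, where a unit is a read or a fragment. The loci behind the labels separated the genotypes: MIR400 was listed at 629 to 953 FPKM in OXmiR400 and at no more than 0.572 FPKM elsewhere, and PPR1, which encodes an organelle RNA-binding protein, at 21.9 to 25.5 FPKM in OXrPPR1 and at no more than 2.56 FPKM elsewhere. Across genes, 3 libraries correlated best with a library of another genotype. Wild type replicate 2 had its highest correlation with OXrPPR1 replicate 1 (0.9745), above those with wild type replicate 1 (0.9643) and replicate 3 (0.9698). OXrPPR1 replicate 3 was closer to wild type replicate 3 (0.9705) than to OXrPPR1 replicate 1 (0.9649) or replicate 2 (0.9621). OXrPPR1 replicate 1 correlated at 0.9737 with OXmiR400 replicate 2 and at 0.9718 with OXrPPR1 replicate 2, below its 0.9745 with wild type replicate 2. All 6 shoot markers exceeded 1 FPKM in all libraries, as did 7 or 8 of 8 root markers, so shoot and root transcripts were both present. Of the 3 seed storage markers none reached 1 FPKM, and of the 3 flower markers at most 1 did. Summed over the root list, levels were 2067 to 3087 FPKM in wild type, 1590 to 1893 in OXmiR400 and 1497 to 2029 in OXrPPR1. In the same order of genotypes, the summed shoot list ran from 15160 to 19300, 21630 to 26410 and 18890 to 22050 FPKM. PYK10 made up most of the root sum (1421 to 2996 FPKM) and LHCB1.3 most of the shoot sum (10171 to 19695 FPKM). Against wild type, 8 of 8 root markers lay below 0 on the log2 scale in OXmiR400 and 4 of 8 in OXrPPR1 (medians -0.65 and -0.02). Of the 6 shoot markers, 6 and 4 lay above 0. Of all tested genes, 53.1% and 54% lay below 0. The part of these differences in the results below was not tested, and in whole seedlings fewer cells of a type and less RNA per cell cannot be told apart.

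The promoters of 2 of the genes are printed here from the TAIR10.1 genome (RefSeq) because the levels of FMO1 and ICS1 varied widely between libraries and because each window holds matches to the sequences that the factors of this pathway recognise. TTGAC is the core of the W-box bound by WRKY factors, TGACG the core bound by TGA factors, and GAAATTT the core bound by CBP60G and its relative SARD1. All 3 were searched on both strands of the 1000 bases before each annotated start, and capitals mark the matches. Each printed window is the stretch of its length with the most matches, so the windows were picked for their matches. FMO1 is shown at chr1:6653199-6653498 (minus strand), bases -303 to -4 from its start, and ICS1 at chr1:28069995-28070294 (plus strand), bases -300 to -1.
FMO1: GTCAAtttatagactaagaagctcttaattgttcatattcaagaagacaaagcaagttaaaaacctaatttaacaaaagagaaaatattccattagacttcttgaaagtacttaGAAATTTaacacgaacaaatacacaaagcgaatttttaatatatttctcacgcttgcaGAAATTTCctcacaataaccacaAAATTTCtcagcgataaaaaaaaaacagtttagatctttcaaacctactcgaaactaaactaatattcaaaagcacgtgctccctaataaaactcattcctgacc
ICS1: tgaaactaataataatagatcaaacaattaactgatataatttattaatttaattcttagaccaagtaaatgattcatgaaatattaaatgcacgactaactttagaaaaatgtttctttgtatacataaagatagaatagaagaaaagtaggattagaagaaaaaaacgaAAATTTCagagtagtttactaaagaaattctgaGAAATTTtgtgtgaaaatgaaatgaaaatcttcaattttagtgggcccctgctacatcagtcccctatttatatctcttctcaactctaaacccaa

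FMO1 had 4 matches to GAAATTT, of which a pair at -131 and -130 is the palindrome GAAATTTC read on both strands. As many were held by 0.815% of 26511 promoters, the smallest share for any gene and motif searched here. ICS1 had 2 matches to GAAATTT, at -129 and -96, reached by 11.8%. PR2 had 3, reached by 3.15%, and PR5, whose levels varied as widely as those of FMO1 and ICS1, had 0. TTGAC was found upstream of 8 of 9 genes searched, where 88.2% of all promoters hold it, TGACG upstream of 4, where 54.7% do, and GAAATTT upstream of 5, where 37.6% do. In PR2 and CBP60G the TGACG matches overlapped TTGAC matches. The matches describe letters and were not tested as binding sites.

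After cadmium, none of the 10 genes was called between any pair of genotypes at adjusted p under 0.05 (limma on log2(FPKM + 1), Benjamini-Hochberg over 19955 genes). OXmiR400 differed from wild type by called changes in 0.571% of all tested genes, OXrPPR1 from wild type in 0.0651%, and the lines from each other in 0.0651%. These shares moved when a single library was left out. Without OXmiR400 replicate 2, genes called against wild type went from 114 to 8 for OXmiR400 and from 13 to 43 for OXrPPR1. This turned their order, as did leaving out OXmiR400 replicate 1 (9 and 44). At unadjusted p under 0.05 the counts among the 10 were 0 for OXmiR400 against wild type, 2 for OXrPPR1 against wild type (PR2 higher, ICS1 lower) and 2 for OXmiR400 against OXrPPR1 (CBP60G and FMO1 higher), where the shares of all tested genes were 15.9%, 10.5% and 7.41%. The libraries of the compared genotypes did not overlap for 0, 2 and 4 of the 10 genes, against 24.3%, 14.7% and 13.2% of all tested genes. The median log2 fold changes of the 10 genes were 0.10, -0.14 and 0.19, beside -0.02, -0.02 and 0.00 for all tested genes. Against wild type, 7 genes lay above 0 in OXmiR400 and 3 in OXrPPR1, and both comparisons share the wild type libraries. All 10 genes passed the expression filter, which asks for a genotype mean of 1 FPKM or more. FMO1 passed it through OXmiR400 alone and PR2 through OXrPPR1 alone, so these 2 were tested because of the genotype in which they are high.

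**Figure D1:**
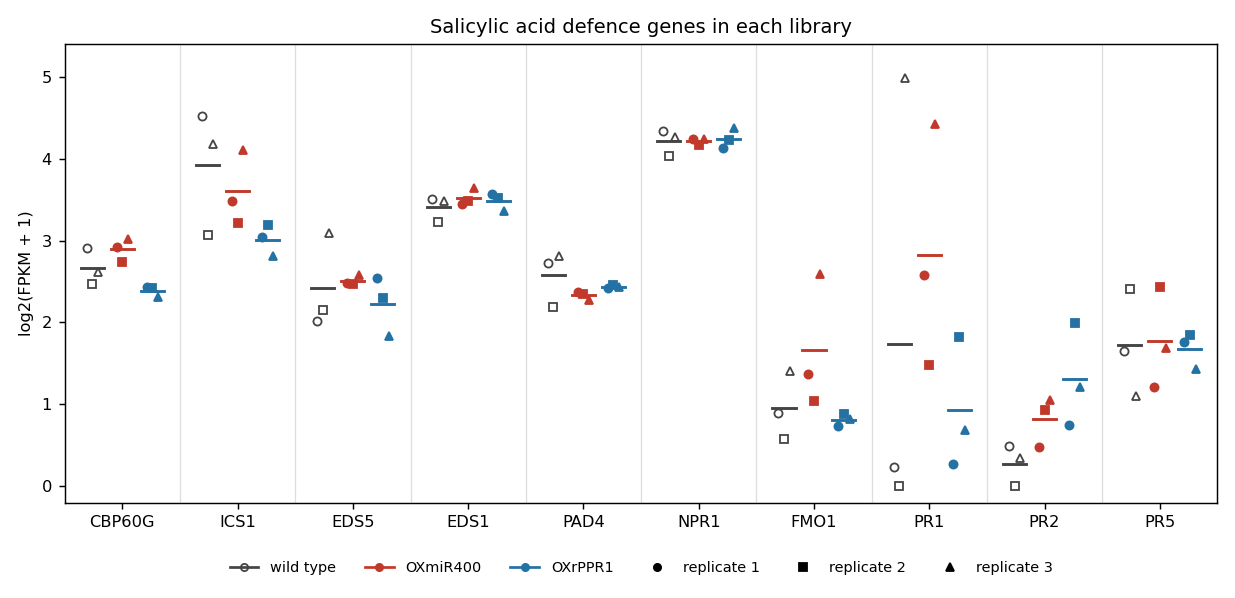
Level of each gene on the log2(FPKM + 1) axis in each of the 9 libraries, with colour for the genotype, symbol for the replicate number and a bar at the mean of the 3 log2 values. NPR1 and EDS1 form tight clusters, while PR1 runs from 0 to 30.7 FPKM within wild type.

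Among the genes of synthesis, CBP60G (AT5G26920, chromosome 5, 9475679 to 9478777, plus strand, 5 exons) encodes a calmodulin-binding transcription factor that activates ICS1. CBP60G measured 6.51, 4.53 and 5.13 FPKM in wild type replicates 1 to 3, 6.58, 5.66 and 7.14 in OXmiR400 and 4.41, 4.36 and 3.96 in OXrPPR1. All 3 OXrPPR1 libraries lay below every wild type and OXmiR400 library. The mean was 5.39 ± 1.01 FPKM in wild type, 6.46 ± 0.748 in OXmiR400 and 4.24 ± 0.251 in OXrPPR1 (SD, n = 3). OXmiR400 exceeded OXrPPR1 by a log2 fold change of 0.50 with a 95% interval of 0.18 to 0.83 (unadjusted p = 0.00613, adjusted p = 0.469 in limma). Against wild type the log2 fold changes were 0.23 (-0.09 to 0.56, adjusted p = 0.48) in OXmiR400 and -0.27 (-0.60 to 0.05, adjusted p = 0.549) in OXrPPR1 (limma, 95% intervals).

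ICS1 (AT1G74710, chromosome 1, 28070295 to 28074177, plus strand, 12 exons) encodes isochorismate synthase, the committed enzyme of stress-induced salicylic acid synthesis. ICS1 measured 21.9, 7.35 and 17.1 FPKM in wild type replicates 1 to 3, 10.2, 8.29 and 16.2 in OXmiR400 and 7.22, 8.12 and 6.01 in OXrPPR1. Wild type replicates 1 and 3 and OXmiR400 replicate 3 stood above the other 6 libraries, and wild type replicate 2 lay inside the OXrPPR1 range. All OXmiR400 libraries were above all OXrPPR1 libraries. The means were 15.4 ± 7.41 FPKM in wild type, 11.6 ± 4.15 in OXmiR400 and 7.12 ± 1.06 in OXrPPR1 (SD, n = 3). The log2 fold change of OXrPPR1 against wild type was -0.91 (95% interval -1.72 to -0.09, unadjusted p = 0.0333, adjusted p = 0.431 in limma). It was -1.34 without wild type replicate 2 and -0.61 without wild type replicate 1, with adjusted p = 0.161 and 0.74 (limma). OXmiR400 differed from wild type by -0.32 (-1.13 to 0.50) and from OXrPPR1 by 0.59 (-0.23 to 1.41) on the log2 scale, with adjusted p = 0.717 and 0.79 (limma).

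EDS5 (AT4G39030, chromosome 4, 18185437 to 18189224, plus strand, 12 exons) encodes the plastid envelope transporter needed to export the isochorismate made by ICS1. EDS5 measured 3.06, 3.46 and 7.53 FPKM in wild type, 4.57, 4.55 and 4.97 in OXmiR400 and 4.84, 3.92 and 2.55 in OXrPPR1. Wild type replicate 3 was the highest of the 9 libraries, and the genotypes overlapped in every comparison. Its log2 fold changes were 0.09 (-0.54 to 0.71) in OXmiR400 and -0.20 (-0.82 to 0.42) in OXrPPR1 against wild type, with adjusted p = 0.91 and 0.844 (limma, 95% intervals). The end of EDS5 overlaps AT4G39040 on the minus strand (18189012 to 18190608), and because the handling of strand is not given, reads from the overlap cannot be assigned to either gene.

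Of the sensing and relay genes, EDS1 and NPR1 differed little between libraries and PAD4 differed within wild type. EDS1 (AT3G48090, chromosome 3, 17755329 to 17758147, minus strand, 4 exons), whose protein relays signals from intracellular immune receptors, measured 10.3, 8.38 and 10.2 FPKM in wild type, 9.87, 10.2 and 11.4 in OXmiR400 and 10.8, 10.4 and 9.26 in OXrPPR1. All genotypes overlapped. The log2 fold changes against wild type were 0.11 (-0.15 to 0.38) in OXmiR400 and 0.07 (-0.19 to 0.34) in OXrPPR1, with adjusted p = 0.678 and 0.863 (limma, 95% intervals). EDS1 has a close copy, EDS1B (AT3G48080), with 85.3% identity over 2114 aligned bases and a longest identical run of 72 bases. EDS1B measured 1.83 to 3.35 FPKM over the 9 libraries, and the split of reads between the copies depends on counting rules not given in the sources used here.

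PAD4 (AT3G52430, chromosome 3, 19431095 to 19434450, plus strand, 2 exons), the binding partner of EDS1, measured 5.64, 3.57 and 5.99 FPKM in wild type, 4.16, 4.07 and 3.86 in OXmiR400 and 4.37, 4.49 and 4.41 in OXrPPR1. Every OXmiR400 library lay below every OXrPPR1 library, while wild type spanned both lines, from 3.57 to 5.99 FPKM. The line-to-line log2 fold change was -0.11 (-0.48 to 0.26, adjusted p = 0.952 in limma, 95% interval). Against wild type it was -0.25 (-0.61 to 0.12) for OXmiR400 and -0.14 (-0.51 to 0.23) in OXrPPR1, with adjusted p = 0.509 and 0.808 (limma).

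NPR1 (AT1G64280, chromosome 1, 23852748 to 23855658, minus strand, 4 exons) encodes a salicylic acid receptor and coactivator of PR genes. NPR1 measured 19.2, 15.4 and 18.2 FPKM in wild type, 17.8, 16.9 and 17.8 in OXmiR400 and 16.5, 17.7 and 19.7 in OXrPPR1. It had the highest mean over all libraries of the 10 genes, higher than that of 74.6% of genes in the table, and the genotypes overlapped. The log2 fold changes against wild type were 0.00 (-0.24 to 0.24) in OXmiR400 and 0.03 (-0.21 to 0.27) in OXrPPR1, with adjusted p = 0.997 and 0.949 (limma, 95% intervals). NPR1 overlaps the pseudogene AT1G64270 and the long non-coding RNA AT1G08667, both on the plus strand, so reads there cannot be assigned.

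**Figure D2:**
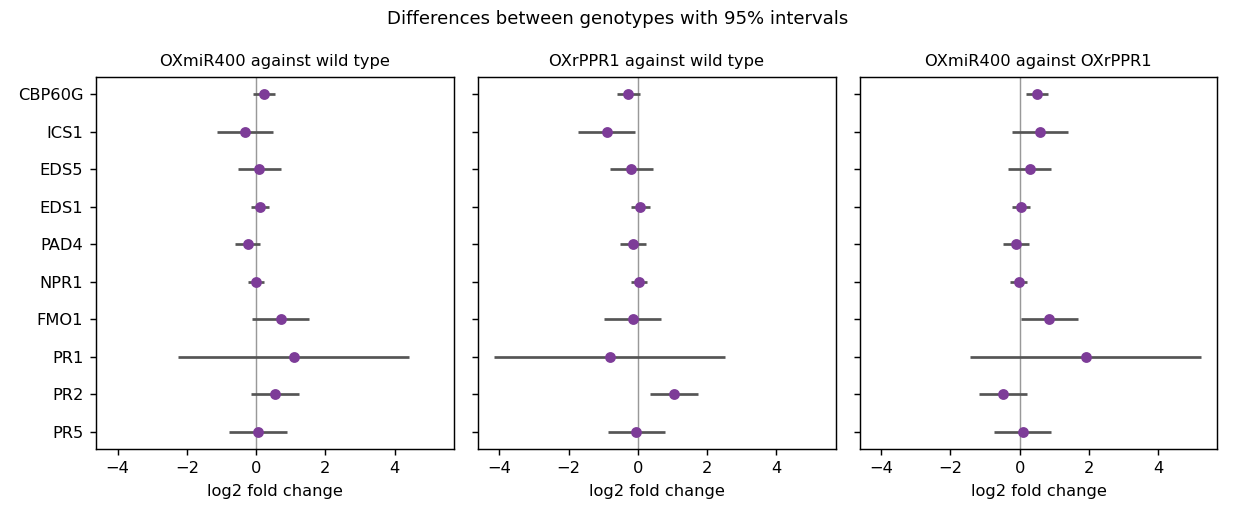
Log2 fold change of each gene on the log2(FPKM + 1) scale (points) with its 95% interval from limma (lines), in 1 panel for each comparison of genotypes. The interval of NPR1 stays within 0.3 of 0 in all panels, while that of PR1 spans from -2.25 to 4.42 in OXmiR400 against wild type.

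FMO1 (AT1G19250, chromosome 1, 6650476 to 6653195, minus strand, 5 exons), whose product hydroxylates pipecolic acid, was low in most libraries. FMO1 measured 0.856, 0.487 and 1.66 FPKM in wild type, 1.58, 1.07 and 5.03 in OXmiR400 and 0.668, 0.846 and 0.766 in OXrPPR1. OXmiR400 replicate 3 was the highest library, and all OXmiR400 libraries were above all OXrPPR1 libraries. Means were 0.9996 ± 0.598 FPKM in wild type, 2.56 ± 2.15 in OXmiR400 and 0.76 ± 0.089 in OXrPPR1 (SD, n = 3). FMO1 passed the expression filter through OXmiR400 alone, where it is high, so its comparisons with OXmiR400 are no support for a difference. OXmiR400 exceeded OXrPPR1 by a log2 fold change of 0.86 (95% interval 0.03 to 1.68, unadjusted p = 0.0432, adjusted p = 0.659 in limma). Without OXmiR400 replicate 3 it was 0.39 (adjusted p = 0.885 in limma). Against wild type the log2 fold change in OXmiR400 was 0.71 (-0.11 to 1.53, adjusted p = 0.382) and became 0.25 without OXmiR400 replicate 3 (adjusted p = 0.741 in limma). In OXrPPR1 against wild type it was -0.14 (-0.97 to 0.68, adjusted p = 0.926 in limma).

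Of the output genes, PR1 varied most, and libraries of a single genotype differed more than the genotype means. PR1 (AT2G14610, chromosome 2, 6241640 to 6242541, minus strand, 1 exon), the classical marker of an active salicylic acid response, measured 0.175, 0 and 30.7 FPKM in wild type replicates 1 to 3. In OXmiR400 it measured 4.97, 1.78 and 20.5 FPKM, and in OXrPPR1 0.21, 2.53 and 0.604 FPKM. Wild type replicate 3 and OXmiR400 replicate 3 were far above the other 7 libraries, and wild type held both the highest and, as listed, the lowest library. These levels correspond to 419.24 and 301.87 units in the high pair of libraries and to 2 units in wild type replicate 1. PR1 is listed at 0 in wild type replicate 2, where 3 units would be 0.194 FPKM. Other genes are also listed at 0, so this can be a failed estimate, and no mean is given for wild type. The fold changes, the order of libraries and the p-values below take the 0 as listed. The means of OXmiR400 and OXrPPR1 were 9.08 ± 10.01 and 1.12 ± 1.24 FPKM (SD, n = 3).

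The log2 fold change of PR1 was 1.09 (95% interval -2.25 to 4.42) in OXmiR400 and -0.81 (-4.15 to 2.52) in OXrPPR1 against wild type, with adjusted p = 0.757 and 0.881 (limma). Without wild type replicate 3 these became 2.71 and 0.81, with adjusted p = 0.235 and 0.771 (limma), so the sign for OXrPPR1 rests on that library. Without wild type replicate 2, the library listed at 0, they became 0.22 and -1.69 (adjusted p = 0.962 and 0.732 in limma). OXmiR400 against wild type was 0.29 without OXmiR400 replicate 3, 0.33 without wild type replicate 1 and 2.62 with a pseudocount of 0.1 FPKM, and it was not called in any of these. Between the lines the log2 fold change was 1.90 (-1.44 to 5.24, adjusted p = 0.849 in limma) and 1.101 without OXmiR400 replicate 3. PRB1 (AT2G14580), a close copy of PR1 with 78.8% identity and a longest identical run of 23 bases, measured no more than 0.339 FPKM in any library.

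PR2 (AT3G57260, chromosome 3, 21188397 to 21189967, minus strand, 2 exons) encodes a beta-1,3-glucanase that attacks fungal cell walls. PR2 measured 0.401, 0 and 0.268 FPKM in wild type, 0.397, 0.914 and 1.08 in OXmiR400 and 0.674, 2.97 and 1.31 in OXrPPR1. All OXrPPR1 libraries were above all wild type libraries, with replicate 2 the highest of the 9. The highest library corresponds to 89.15 units and those of wild type to 7.49, 0 and 5.99 units, and the value listed at 0 leaves wild type without a mean, though the fit takes it as listed. OXmiR400 averaged 0.796 ± 0.355 and OXrPPR1 1.65 ± 1.18 FPKM (SD, n = 3). PR2 passed the expression filter through OXrPPR1 alone, where it is high, so its comparisons with OXrPPR1 are no support for a difference. OXrPPR1 exceeded wild type by a log2 fold change of 1.04 (95% interval 0.34 to 1.73, unadjusted p = 0.00753, adjusted p = 0.293 in limma). It was 0.90 without wild type replicate 2, the library listed at 0 (adjusted p = 0.397), and 2.50 with a pseudocount of 0.1 FPKM (adjusted p = 0.27), and without OXrPPR1 replicate 2 the gene no longer passed the expression filter. OXmiR400 differed from wild type by 0.55 (-0.14 to 1.24, adjusted p = 0.427) and from OXrPPR1 by -0.49 (-1.18 to 0.20, adjusted p = 0.798 in limma). BG3 (AT3G57240), a related glucanase with 73.9% identity to PR2, measured no more than 0.661 FPKM.

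PR5 (AT1G75040, chromosome 1, 28177670 to 28179022, plus strand, 2 exons) encodes a thaumatin-like protein. PR5 measured 2.15, 4.33 and 1.15 FPKM in wild type, 1.31, 4.39 and 2.22 in OXmiR400 and 2.40, 2.60 and 1.69 in OXrPPR1. Wild type replicate 2 and OXmiR400 replicate 2, the highest pair, were not those that were high in PR1, and the genotypes overlapped. Its log2 fold changes were 0.05 (-0.77 to 0.88) in OXmiR400 and -0.04 (-0.87 to 0.78) in OXrPPR1 against wild type, with adjusted p = 0.96 and 0.982 (limma, 95% intervals). Between the lines it was 0.09 (-0.73 to 0.92, adjusted p = 0.992 in limma).

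The spread between libraries of a genotype differed widely among the 10 genes. The SD within genotypes on the log2(FPKM + 1) scale was 0.12 for NPR1, 0.12 for EDS1, 0.16 for CBP60G and 0.20 for PAD4, where the median of all tested genes was 0.19. It was 0.40 for EDS5, 0.43 for PR2, 0.53 for ICS1, 0.53 for FMO1, 0.54 for PR5 and 1.90 for PR1. The SD of PR1 was larger than that of 99.8% of tested genes, those of PR5, FMO1 and ICS1 larger than 95.5%, 95.4% and 95.1%, and that of NPR1 larger than 17.7%.

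**Figure D3:**
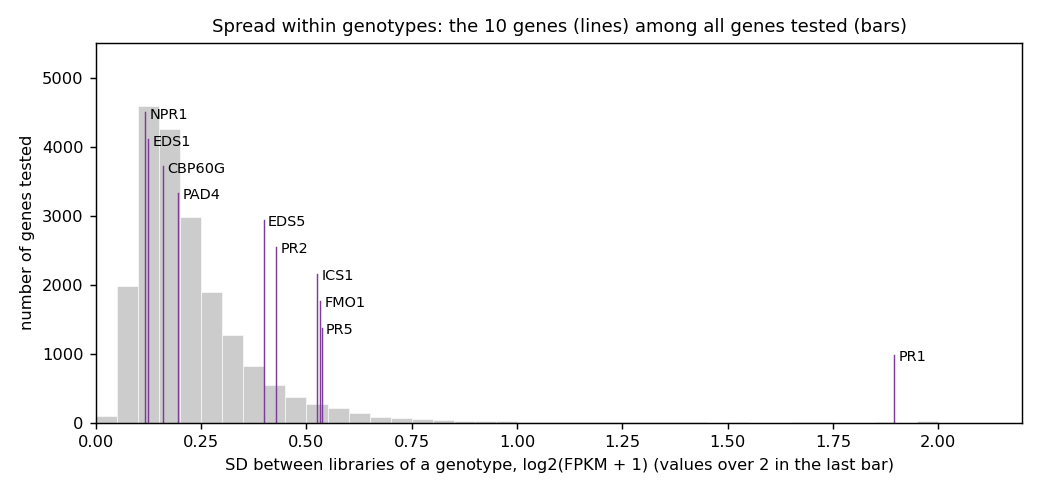
Histogram of the SD between libraries of a genotype over the 19955 genes tested (bars, log2(FPKM + 1) scale) with lines at the SD of each of the 10 genes. NPR1, EDS1, CBP60G and PAD4 lie in the bulk near the median of 0.19, and PR1 lies at 1.90 near the right edge.

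Wild type replicate 2 was the lowest wild type library in 8 of the 10 genes, all except EDS5 and PR5, where it held that place in 38.1% of all tested genes and in 27 of 46 further salicylic acid genes. In 2 of the 8, PR1 and PR2, it is listed at 0. OXmiR400 replicate 3 was the highest OXmiR400 library in 8 of the 10, all except PAD4 and PR5, against 28% of all tested genes and 18 of the 46. OXrPPR1 replicate 2 was the highest of its genotype in 6 of the 10, against 28.8% of all tested genes and 16 of the 46 (34.8%). These counts describe single libraries, and their cause was not tested.

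Outside the 10 genes, those most like PR1 over the 9 libraries were LURP1 (AT2G14560; Pearson r = 0.988), WRKY38 (AT5G22570; 0.95) and AT5G41290, a receptor-like kinase-related gene (0.94), all on the log2(FPKM + 1) scale. LURP1 measured 2.77 and 2.24 FPKM in wild type replicate 3 and OXmiR400 replicate 3 and no more than 1.1 in the other libraries. WRKY38 measured 4.96 and 3.44 FPKM in that pair and no more than 1.64 elsewhere. The genes most like ICS1 were AT1G56520, a TIR-NBS-LRR gene (0.965), PBS3 (AT5G13320; 0.939) and AT4G25620 (0.937). PBS3, whose enzyme conjugates isochorismate with glutamate in the next step of synthesis, measured 2.40, 2.74 and 2.59 FPKM in the 3 libraries high in ICS1 and no more than 0.861 in the other 6. Those most like EDS1 were AT1G78020 (0.942), AT1G32583, the gene that hosts MIR400 in an intron (0.913), and RBX1 (AT5G20570; 0.912). The 9 points share libraries and depth, and the highest r among many genes is a ranking, so no p is given.

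A wider list of 54 salicylic acid genes, of which 46 were tested, was described next to the 10. None of the 46 was called in any comparison (limma, lowest adjusted p = 0.109, 0.248 and 0.327 for OXmiR400 against wild type, OXrPPR1 against wild type and OXmiR400 against OXrPPR1). At unadjusted p under 0.05, 3 were higher and 5 lower in OXmiR400 than in wild type, 1 higher and 5 lower in OXrPPR1 than in wild type, and 4 higher and 1 lower in OXmiR400 than in OXrPPR1. Together these are 17.4%, 13% and 10.9% of the 46, near the 15.9%, 10.5% and 7.41% of all tested genes. Of the 46, 34 (73.9%) lay below 0 in OXmiR400 and 32 (69.6%) in OXrPPR1 against wild type, beside 53.1% and 54% of all tested genes, and 23 (50%) between the lines, beside 49.6%. The medians were -0.14, -0.17 and 0.00 on the log2 scale. Both comparisons against wild type share its libraries. Some of the 46 passed the filter through a single genotype, which favours the sign of their change. Among them were NUDT6 through wild type, PNP-A through OXrPPR1 and LURP1 through OXmiR400. The genes below the filter were ALD1, BSMT1, NIMIN1, WRKY54, WRKY62, PCC1, AED1 and ACD6, with at most 1.92 FPKM in any library (WRKY62).

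In OXmiR400 the smallest p-values against wild type belonged to TGA3, a partner of NPR1 at PR promoters, at 30.9 ± 3.29 against 41.5 ± 2.79 FPKM, and TRX5, a thioredoxin that reduces NPR1, at 35.3 ± 2.60 against 58.1 ± 12.2 FPKM (SD, n = 3). PAL1, of the phenylalanine route, measured 21.1 ± 1.42 against 29.9 ± 6.48, and the transcription factor gene WRKY53 13.0 ± 6.88 against 5.17 ± 0.71 FPKM (SD, n = 3). Their adjusted p-values were 0.109, 0.2, 0.243 and 0.266 (limma). In OXrPPR1 against wild type, NIMIN3, which encodes an NPR1-interacting protein, measured 39.1 ± 6.81 against 26.7 ± 3.12 FPKM, and NPR4, a salicylic acid receptor that restrains defence genes, 8.16 ± 0.558 against 10.5 ± 0.731 (SD, n = 3). The immune receptor genes ADR1-L1 and SNC1 measured 21.7 ± 1.69 against 25.6 ± 0.209 and 22.2 ± 2.19 against 28.9 ± 4.35 FPKM (SD, n = 3). Their adjusted p-values were 0.248, 0.371, 0.405 and 0.417 (limma).

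Between the lines, GRX480, a glutaredoxin that binds TGA factors, measured 5.13 ± 1.08 FPKM in OXmiR400 and 1.73 ± 1.00 in OXrPPR1 (SD, n = 3), a log2 fold change of 1.23 (unadjusted p = 0.00136, adjusted p = 0.327 in limma). CBP60A (AT5G62570), a relative of CBP60G, measured 19.9 ± 2.33 against 15.7 ± 1.55, and DLO1, which hydroxylates salicylic acid, 4.79 ± 3.33 against 1.41 ± 0.404 FPKM (SD, n = 3). UGT74F2, a salicylic acid glucosyltransferase, measured 27.9 ± 7.15 in OXmiR400 against 36.7 ± 4.02 FPKM in OXrPPR1 (SD, n = 3). The adjusted p-values of the latter 3 were 0.558, 0.659 and 0.665 (limma).

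**Figure D4:**
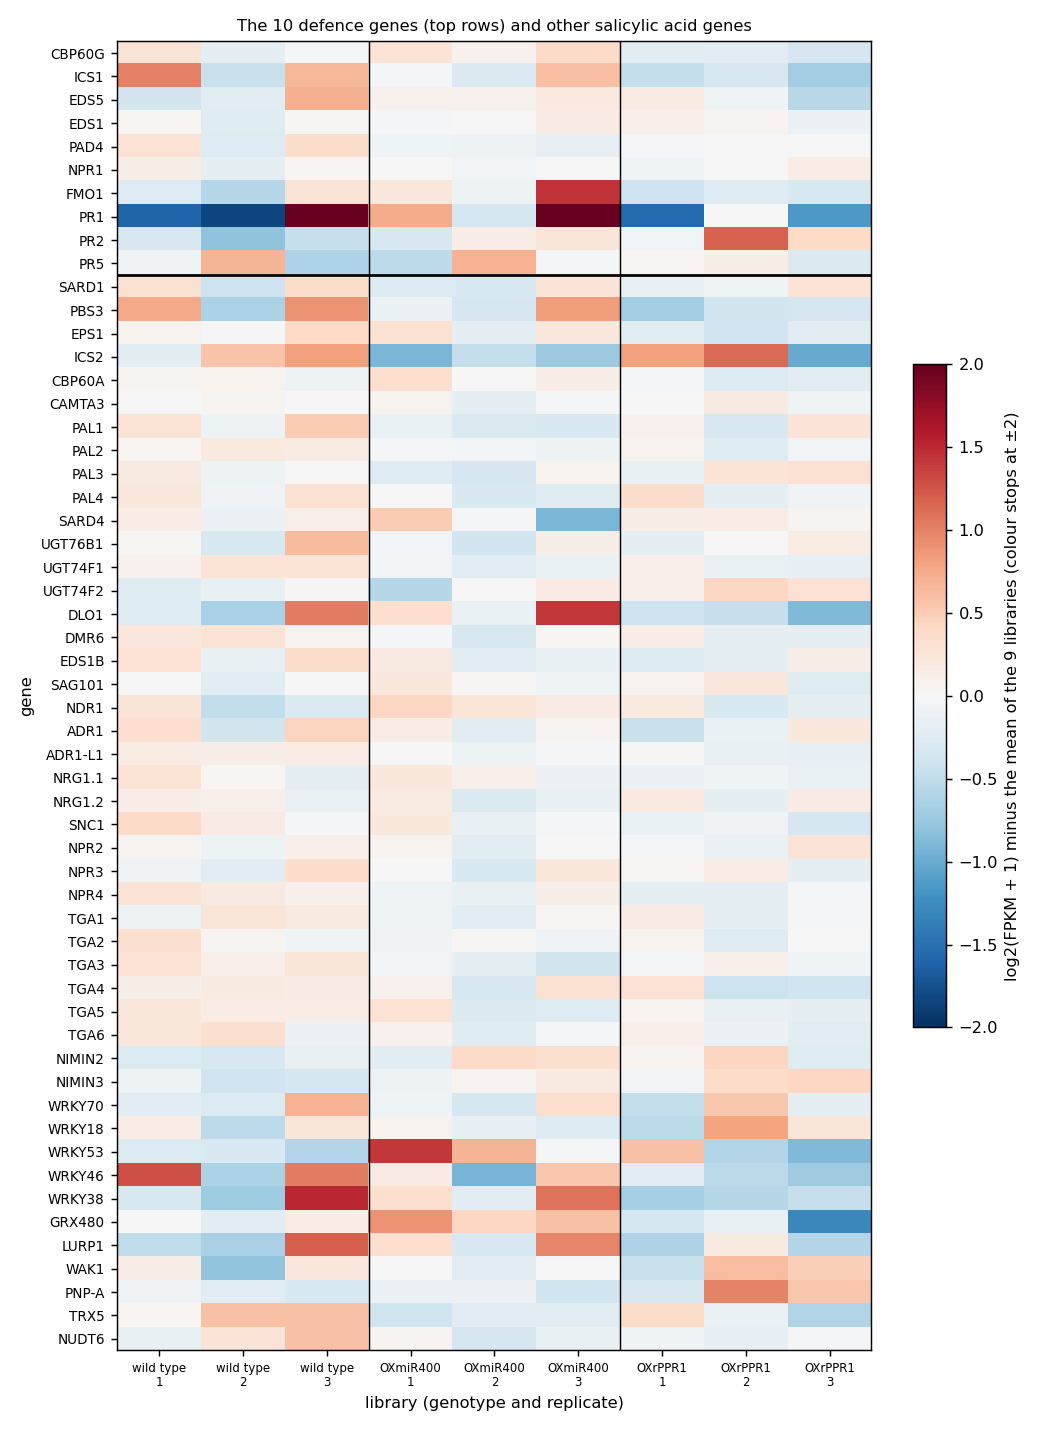
Heat map of log2(FPKM + 1) minus the mean of the 9 libraries for the 10 genes (above the line) and the 46 further salicylic acid genes tested, with 1 column for each library and colours that stop at 2 above or below the mean. PR1 is darkest in wild type replicate 3 and OXmiR400 replicate 3, at 30.7 and 20.5 FPKM, where WRKY38, LURP1 and DLO1 are also red.

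Jasmonate and ethylene defence, which often runs opposite to the salicylic acid branch, was described by 15 genes, of which 14 were tested and MYC2, listed at no more than 0.189 FPKM, was not. None was called (limma, lowest adjusted p = 0.142, 0.417 and 0.673), and 1 gene was lower at unadjusted p under 0.05 in each comparison, 7.14% of the list beside 15.9%, 10.5% and 7.41% of all tested genes. This was the chitinase gene PR3 against wild type, at 45.7 ± 9.14 FPKM in OXmiR400 and 50.1 ± 8.32 in OXrPPR1, where wild type had 66.5 ± 4.95 (SD, n = 3). Between the lines it was the transcription factor gene ANAC055, at 18.2 ± 7.83 FPKM in OXmiR400 and 29.7 ± 9.53 in OXrPPR1 (SD, n = 3). The list lay above 0 in 7 of 14 genes in OXmiR400 and in 12 of 14 in OXrPPR1 against wild type, with medians of 0.09 and 0.25 on the log2 scale, while 46.9% and 46% of all tested genes lay above 0. These counts include 4 plant defensin genes (PDF1.2A, PDF1.2B, PDF1.2C and PDF1.3) that did not pass the filter through wild type. PDF1.2A passed it through both lines and the others through OXmiR400 alone, where the mean of each rests on replicate 3. Of the other 10 genes, 3 and 8 lay above 0, with medians of -0.19 and 0.22, so the sign of the median in OXmiR400 rests on the defensins. In OXmiR400 against OXrPPR1, 4 of 14 lay above 0 (median -0.16), beside 50.4% of all tested genes. Without the defensins it was 0 of 10 (median -0.22).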

How the data were processed

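RNA-seq was made from 9 seedling samples. TRIzol was used for RNA and a SMARTER mRNA-Seq kit for the libraries, per the labels' protocols. The submitters' processing notes name the genome builds GRCm38 and mm10, which are mouse builds, but 26513 of the 26973 deposited gene identifiers matched an Arabidopsis locus in TAIR10.1 (RefSeq), 26504 of them with identical start and end. TAIR10.1 positions are therefore printed. The sources used here name no aligner or counting program and do not say how strand and shared reads were treated. The files deposited are 3 copies of 1 table.

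The deposited values are taken as FPKM made by the authors. No label or header names the unit: multiplied by exon length, the values sum to 0.9929 to 0.998 of the total that FPKM over all genes gives. In each library 99.5% to 99.7% of low values fell on steps of which 4 make 1 unit (tolerance 0.05 of a step) and 51.1% to 56% on whole units, so a count model could not be used. Unit totals come from these steps. The limit of 3 units behind a value of 0 was a fixed choice, turned into FPKM with these totals. Both cover counting error only.

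The filter kept 19955 genes whose mean reached 1 FPKM in some genotype. In limma 3.58.1 under R 4.3.3, log2(FPKM + 1) of the 9 libraries was modelled by genotype with empirical Bayes variances (trend and robust options), and p-values were adjusted by Benjamini-Hochberg over all genes tested. On this scale the change of a low gene is understated. An exact permutation test had been planned for members under the filter, but all 10 passed it. The fit was checked on data simulated with known changes for OXmiR400 against wild type before use. Over 3 simulated datasets, 73.3% of 2-fold and 95.3% of 4-fold changes were called, with 31 false calls. Only genes whose mean log2(FPKM + 1) exceeded that of 5 FPKM were changed. The check therefore does not cover genes as low as EDS5, PAD4, FMO1, PR1, PR2 and PR5. The shares called are taken over randomly drawn genes of differing spread. They do not describe ICS1, whose SD within genotypes of 0.53 was larger than that of 95.1% of tested genes. Promoters, copies and figures were handled in Python 3.11.15 with pandas 2.3.3, Biopython 1.88 and matplotlib 3.10.9.

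The 10 members, the gene lists and the tests were chosen with earlier results of these data known. The upstream sequence of PR1 is not reported here. By rule the text names all members, up to 4 genes of smallest p per list and comparison, and the 3 tested genes most correlated with PR1, ICS1 and EDS1. The settings tried instead were a pseudocount of 0.1 FPKM, a filter of 5 FPKM or none, quantile normalization, median centring, variances without trend, a fit on the 6 libraries compared, a replicate block, each library left out, and wild type replicate 2 and OXrPPR1 replicate 3 left out together.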

Additional observations from a re-analysis of the deposited data

How the results depend on the processing

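None of the 10 genes and none of the 46 further salicylic acid genes was called in any comparison under any alternative run. The lowest adjusted p of a member over the alternatives was 0.151 for OXmiR400 against wild type, 0.11 for OXrPPR1 against wild type and 0.396 for OXmiR400 against OXrPPR1 (limma). Under the filter of 5 FPKM, members below it have no value. Deviations of same-numbered libraries correlated at -0.246 for wild type replicate 1 with OXrPPR1 replicate 1 and at 0.006 to 0.133 for the other pairs. Those of libraries with unlike numbers correlated at -0.378 to 0.31. A weak pairing by replicate number cannot be told from none in these values. With the replicate block, genes called between the lines went from 13 to 7.

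Counts over all genes moved more. For OXmiR400 against wild type, 114 became 66 with no filter, 216 with only the 6 libraries compared, 8 to 194 with single libraries left out, and 373 without wild type replicate 2 and OXrPPR1 replicate 3 together. For OXrPPR1 against wild type, 13 became 8, 39, 4 to 44 and 37. Without OXmiR400 replicate 1 or 2, more genes were called for OXrPPR1 (44 and 43) than for OXmiR400 (9 and 8). Between the lines, 13 became 24 with only the 6 libraries, 7 to 18 with single libraries left out, and 34 without both libraries. Fewer or more samples alter the degrees of freedom, and the cause was not tested further.

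Some uncalled log2 fold changes turned sign. With single libraries left out, OXmiR400 against wild type ran from -0.12 to 0.42 for EDS5, -0.089 to 0.061 for NPR1 and -0.28 to 0.40 for PR5. OXrPPR1 against wild type ran from -0.40 to 0.14 for EDS5, -0.014 to 0.14 for EDS1, -0.058 to 0.092 for NPR1, -0.34 to 0.082 for FMO1, -1.69 to 0.81 for PR1 and -0.35 to 0.30 for PR5. Between the lines the ranges were -0.021 to 0.083 for EDS1, -0.087 to 0.034 for NPR1 and -0.23 to 0.38 for PR5. NPR1 in OXmiR400 was 0.041 with quantile normalization and 0.032 with median centring. Without wild type replicate 2 and OXrPPR1 replicate 3 together, EDS5 in OXmiR400 was -0.049, NPR1 and PR5 in OXrPPR1 were -0.12 and 0.43, and EDS1, NPR1 and PR5 between the lines were -0.021, 0.034 and -0.032. In all, 10 of 174, 10 of 174 and 8 of 175 values of members changed sign, and the cause was not tested.

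Depth limits PR2 and PR1 most, which rest on fewer than 10 units in several libraries.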

Other observations

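Plant defensin genes of the jasmonate and ethylene branch were high in a single OXmiR400 library. PDF1.2A (AT5G44420) measured 33.6 FPKM in OXmiR400 replicate 3 and 4.32 in OXrPPR1 replicate 2, and no more than 0.409 in the other libraries. PDF1.3 (AT2G26010) measured 37.6 and 1.31 FPKM, PDF1.2C (AT5G44430) 15.7 and 2.78 FPKM, and PDF1.2B (AT2G26020) 5.20 and 1.05 FPKM in the same pair of libraries. These genes are close copies of each other, so the split of reads between them is uncertain. OXmiR400 replicate 3 was also high in PR1, at 20.5 FPKM, whereas wild type replicate 3, with PR1 at 30.7 FPKM, had PDF1.2A at 0.114 FPKM. The flower marker list summed to 1.29 FPKM in OXmiR400 replicate 3 and 3.29 in OXrPPR1 replicate 2, and to no more than 1.14 in the other libraries. Most of both sums came from AP3 (AT3G54340), at 1.06 and 2.65 FPKM. In the same 2 libraries AG measured 0.236 and 0.638 FPKM, and AP1 was listed at 0.

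ICS2 (AT1G18870), the second isochorismate synthase gene, had its highest library in OXrPPR1. It measured 12.6, 22.6 and 27.0 FPKM in wild type, 7.35, 10.4 and 8.52 in OXmiR400 and 26.9, 33.6 and 6.86 in OXrPPR1. All OXmiR400 libraries lay below all wild type libraries (log2 fold change -1.10, adjusted p = 0.36 in limma), and OXrPPR1 replicate 3 was the lowest of the 9. ICS1 and ICS2 share 76.7% identity with a longest identical run of 23 bases.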
